A study of Mus musculus with 12 samples.

Results

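Heat shock proteins and chaperones were followed in RNA of thymocytes, those of AND-TCR–transgenic mice set against those of wild-type C57BL/6 mice. The members were all probe sets, controls aside, whose only annotated gene symbol began with Hspa, Hspb, Hspd, Hspe, Hsph, Hsp90, Dnaja, Dnajb or Dnajc, or with Cct or Bag and a digit. This rule took 187 of 36701 probe sets, which stood for 84 of 15965 genes. It read symbols alone and no measured value. *Tcp1*, the first subunit of the CCT ring, was outside it by its name, and no probe set carried *Hsp90ab1* as its only symbol.

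AND-TCR–transgenic mice carry a rearranged T cell receptor for MHC class II, and on the H-2b background their thymocytes are positively selected toward the CD4 lineage. C57BL/6 mice were the wild-type group. Total RNA of all adult thymocytes, unsorted, was hybridized to 3 Affymetrix array types, U74Av2, U74Bv2 and U74Cv2, with 2 hybridizations for every group and type and 12 arrays altogether. The study describes the 2 hybridizations as independent experiments, but neither it nor the labels say whether they came from separate mice. The p-values therefore measure the spread between hybridizations, part of which may be technical, and the promoter that drives the transgene is not given in the sources used here.

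Chaperones bind unfolded protein and help it to fold. Hsp70 proteins do so in cycles of ATP hydrolysis, which J proteins (the Dnaja, Dnajb and Dnajc families) stimulate. Hsp110, Hspbp1 and many Bag proteins reset the cycle by exchanging the nucleotide. Hsp90 takes over clients at a late step, Hsp60 with its lid Hsp10 folds proteins in mitochondria, and the CCT ring folds actin and tubulin in the cytosol. Under heat or other stress, heat shock factor 1 raises a subset of these genes through repeats of GAA and its complement in their promoters, and unfolded protein in the endoplasmic reticulum raises another subset through the ER stress response element. Many chaperones are expressed in thymocytes, as in most cells, without any applied stress.

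The promoters of 6 members are shown because they hold the letters of one or the other element, and because their genes gave different readings on these arrays. They are from RefSeq on GRCm38.p6 and show the 250 bases upstream of an annotated start, with capitals marking GAANNTTC or TTCNNGAA in the first 3 and both ends of the ER stress response element, which is CCAAT and CCACG with 9 bases of any kind between them, on either strand, in the last 3.
Hspe1 (chr1:55087898-55088147, plus strand): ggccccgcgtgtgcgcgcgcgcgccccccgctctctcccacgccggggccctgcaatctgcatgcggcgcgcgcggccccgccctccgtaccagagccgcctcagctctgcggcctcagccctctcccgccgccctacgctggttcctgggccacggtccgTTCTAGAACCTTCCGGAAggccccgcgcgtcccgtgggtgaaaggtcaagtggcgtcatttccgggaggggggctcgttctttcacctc
Hsph1 (chr5:149636337-149636586, minus strand): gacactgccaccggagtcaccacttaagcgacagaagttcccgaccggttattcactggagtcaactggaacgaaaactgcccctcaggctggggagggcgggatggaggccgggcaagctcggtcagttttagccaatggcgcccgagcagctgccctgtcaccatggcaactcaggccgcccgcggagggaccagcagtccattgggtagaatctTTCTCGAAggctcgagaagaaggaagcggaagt
Hspa1a (chr17:34972157-34972406, minus strand): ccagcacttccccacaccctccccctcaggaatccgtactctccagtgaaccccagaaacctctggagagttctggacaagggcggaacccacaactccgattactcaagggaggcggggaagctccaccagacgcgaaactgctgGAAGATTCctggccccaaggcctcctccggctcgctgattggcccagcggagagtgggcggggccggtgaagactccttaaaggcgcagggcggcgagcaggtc
Hspa5 (chr2:34771840-34772089, plus strand): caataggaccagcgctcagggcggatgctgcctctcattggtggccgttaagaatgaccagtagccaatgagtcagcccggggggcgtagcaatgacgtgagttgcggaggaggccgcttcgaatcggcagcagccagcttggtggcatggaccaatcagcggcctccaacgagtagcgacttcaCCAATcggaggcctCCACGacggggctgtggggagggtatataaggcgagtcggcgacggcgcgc
Hsp90b1 (chr10:86705445-86705694, minus strand): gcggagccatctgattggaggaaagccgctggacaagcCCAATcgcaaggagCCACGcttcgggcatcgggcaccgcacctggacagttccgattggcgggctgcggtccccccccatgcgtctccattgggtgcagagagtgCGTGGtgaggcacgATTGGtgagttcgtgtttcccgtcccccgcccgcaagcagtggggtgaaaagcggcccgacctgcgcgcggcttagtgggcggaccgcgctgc
Dnajc3 (chr14:118937682-118937931, plus strand): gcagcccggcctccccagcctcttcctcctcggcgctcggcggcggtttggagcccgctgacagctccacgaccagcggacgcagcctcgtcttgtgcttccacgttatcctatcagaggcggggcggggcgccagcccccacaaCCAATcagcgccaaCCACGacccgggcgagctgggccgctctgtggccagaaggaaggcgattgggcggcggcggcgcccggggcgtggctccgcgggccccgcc

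Promoter windows were found for 70 of the 84 genes, 89 windows in all. The palindromes GAANNTTC or TTCNNGAA, each its own reverse complement and able to overlap the other, were in 21.3% of the windows of these genes (17 genes) and in 12.8% of all 32851 windows. The ER stress response element was in 3 windows, those of *Hspa5*, *Hsp90b1* and *Dnajc3*, and in 0.113% of all windows. *Hspe1* lies head to head with *Hspd1*, whose start on the minus strand is 216 bases away in one of its 2 windows. For that start, the 3 overlapping palindromes upstream of *Hspe1* lie upstream of *Hspd1* as well. In the other window the *Hspd1* start lies past the *Hspe1* start, and the palindromes are downstream of it. The 250 bases of *Hspa1a* and *Hspa1b*, neighbors on chromosome 17, were identical at 247 positions. A match of letters is a description of the sequence and says nothing about binding in these cells.

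Whole-series facts that bear on the values are few. The deposited values are intensities in arbitrary units, some of them negative. From the negative values a detection limit was set for each array type, 420.8 on U74Av2, 869.4 on U74Bv2 and 1579 on U74Cv2, and lower values were raised to it before log2. Levels of different probe sets cannot be set against each other. The fluidics module was number 4 for every AND-TCR–transgenic array and number 2 for every C57BL/6 array, so module and group cannot be told apart. On U74Av2 *Xist* read -52.8 and -98.6 in the AND-TCR–transgenic arrays and 2878 and 3001 in the C57BL/6 arrays, while the Y-linked *Eif2s3y* read 1649 and 1529 in the AND-TCR–transgenic arrays and -110 and 13.0 in the C57BL/6 arrays, so sex and group cannot be told apart either. The groups also differed in cell makeup. Of 12 tested probe sets for double-positive thymocytes 8 were lower in AND-TCR–transgenic thymocytes and 0 were higher, with U74Av2 sums of 67037 and 73883 in AND-TCR–transgenic arrays against 186430 and 179430 in C57BL/6 arrays. For mature single-positive thymocytes 4 of 10 were higher and 0 were lower, with sums of 81566 and 86085 in AND-TCR–transgenic arrays against 40983 and 40860 in C57BL/6 arrays. An *H2-K1* probe set gave the most to these sums, 35448 and 42150 in AND-TCR–transgenic arrays against 21695 and 24013 in C57BL/6 arrays. Without overlap 8 of the 10 read higher (23.0% of all tested probe sets did) and 2 lower (21.4% did). The 2 were *Il7r* (log2 fold change -0.44) and another *H2-K1* probe set (-0.31). In unsorted thymocytes, fewer cells of a type and less RNA per cell cannot be told apart, and what these differences contribute to any value below was not tested.

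Of the 187 member probe sets 84, for 53 genes, had both arrays of at least 1 group above the limit and were tested. This was 44.9% of the members, against 35.0% of all probe sets. The other 103 comprised 82 that were under the limit on all 4 arrays, 14 above it on 1 array and 7 above it on 1 array of each group. No member passed the test at an adjusted p under 0.05 in limma, with 0 higher and 0 lower in AND-TCR–transgenic thymocytes. Among the 12844 tested probe sets of the arrays 135 passed (1.05%), with 62 (0.483%) higher and 73 (0.568%) lower, which for a list of this size is less than 1 probe set in each direction. The lowest adjusted p of a member was 0.0577, for *Dnajc15*. With the hybridization number, which is also the day, as a block, 1 member (*Dnajc15*, adjusted p = 0.0250) was lower, where 155 of all probe sets rose and 151 fell.

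At an unadjusted p under 0.05, 9 of the 84 members (10.7%) were found, against 1796 of all tested probe sets (14.0%). Higher in AND-TCR–transgenic thymocytes were 2 members (2.38%), against 7.47% of all, and lower were 7 (8.33%), against 6.51% of all. Of the lower ones, *Dnajc15*, *Dnajc27* and a *Dnajc5* probe set had both AND-TCR–transgenic arrays under the limit. They passed the filter through C57BL/6 alone, and their AND-TCR–transgenic values were set to the limit. The *Dnajb4* probe set also passed through C57BL/6 alone, with 1 AND-TCR–transgenic array under the limit. Of the higher ones, an *Hspd1* probe set passed through the AND-TCR–transgenic arrays alone, with 1 C57BL/6 array under the limit. The counts of higher and lower members therefore rest in part on the filter. Of the 9 members, those with no array under the limit were *Hspa5*, higher, and *Cct7*, *Hsp90aa1* and another *Dnajc5* probe set, lower. A separate limma fit left out every probe set with an array under the limit. There 2 of 63 members were higher and 2 lower at an unadjusted p under 0.05. Of its 10053 probe sets, 1281 passed this threshold in either direction. In the main fit, the median log2 fold change of the 84 members was -0.02, against 0.02 over all tested probe sets. Both AND-TCR–transgenic arrays lay above both C57BL/6 arrays for 14 members (16.7%, against 23.0% of all), and both lay below for 21 (25.0%, against 21.4% of all). The remaining 49 overlapped.

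The members' differences were mostly small. The absolute log2 fold change was under 0.5 for 70 of 84 members (83.3%, against 77.7% of all) and over 1 for 2 (2.38%, against 4.34%). The 95% confidence interval of the log2 fold change lay within 1 unit of 0, which is a 2-fold change, for 53 members (63.1%, against 54.7% of all). The intervals of the other 31 reached past 1 unit, so these arrays do not exclude a 2-fold change for them. Where values were raised to the limit, the floor shrinks both the difference and the spread. A narrow interval there does not exclude a 2-fold change either. A dim *Dnajc5* probe set read 274 and 418 in AND-TCR–transgenic arrays and 1080 and 1147 in C57BL/6 arrays, with an interval of -0.69 to -0.02. The direction was the same in the first and second hybridizations for 48 members, 22 up and 26 down, which is 57.1% against 57.7% of all tested probe sets.

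**Figure D1:**
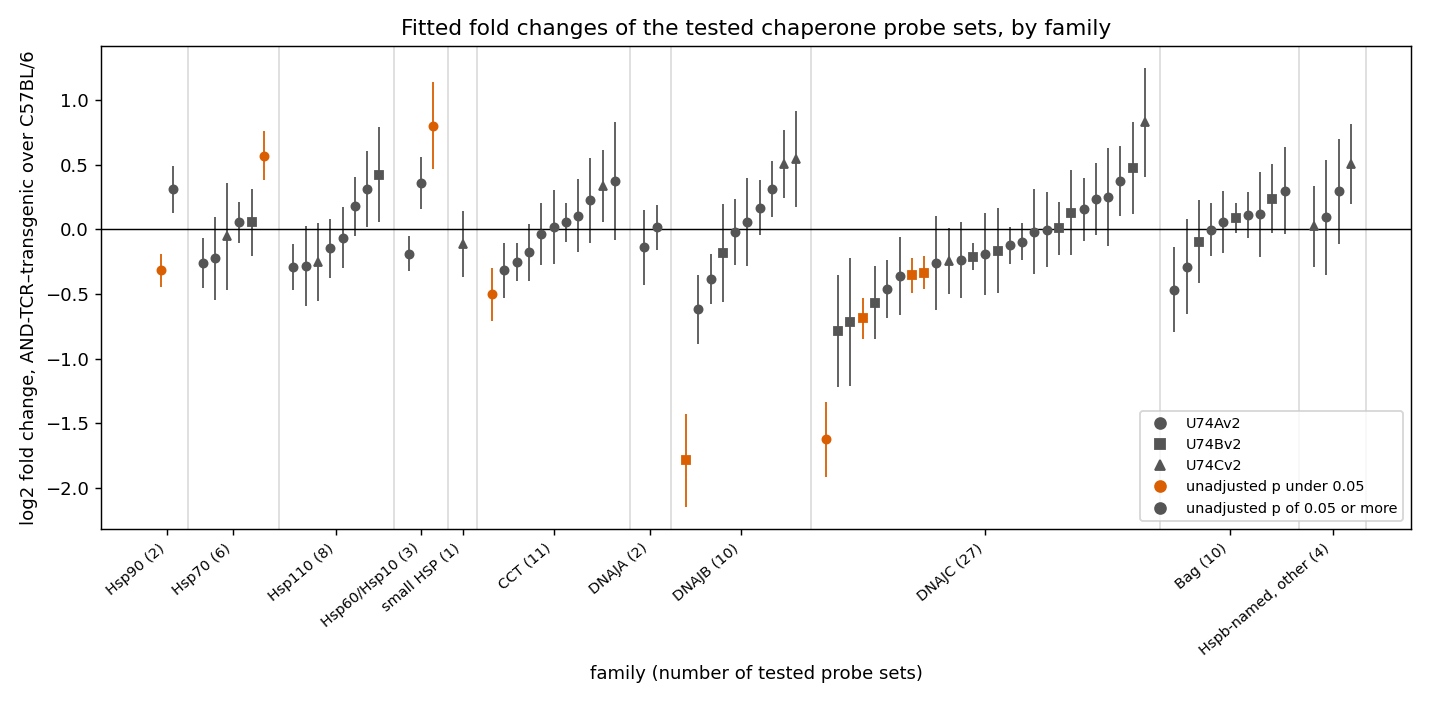
Fitted log2 fold changes of the 84 tested member probe sets, AND-TCR–transgenic over C57BL/6 thymocytes, by family, with bars of 1 standard error and symbols for the array type. The 9 orange points had an unadjusted p under 0.05, and 2 points, *Dnajb4* and *Dnajc15*, lie below -1.

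Among cytosolic members, *Hspa8* overlapped between the groups, and *Hsp90aa1*, *Hsph1* and *Dnajb1* read lower without overlap and without passing the adjusted threshold. Of all tested probe sets, 21.4% were lower without overlap. Other members of the same families had both signs. *Dnaja1* gave 0.02 ± 0.17 and *Dnajb6* gave -0.02 and 0.17, all overlapping, and the 4 tested probe sets of *Hspa4* lay between -0.15 and 0.31. *Hspa8*, the constitutive Hsp70 of the cytosol, read 14054 and 11067 in AND-TCR–transgenic arrays and 11561 and 12482 in C57BL/6 arrays. The AND-TCR–transgenic values lay on both sides of the C57BL/6 values, and the log2 fold change was 0.05 ± 0.16 (SE, n = 2 each) with a 95% confidence interval of -0.32 to 0.43. *Hsp90aa1*, the stress-responsive cytosolic Hsp90, read 12099 and 12789 in AND-TCR–transgenic arrays against 16199 and 14837 in C57BL/6 arrays. Both AND-TCR–transgenic arrays were lower, with a log2 fold change of -0.32 ± 0.13 and an adjusted p of 0.346 in limma. *Hsph1*, the heat-inducible Hsp110, read 2943 and 2931 in AND-TCR–transgenic arrays against 3468 and 3733 in C57BL/6 arrays. Here too the groups did not overlap, and the log2 fold change of -0.29 ± 0.18 had an adjusted p of 0.529. *Dnajb1*, the J protein that works with Hsp70 under heat stress, read 2464 and 2582 in AND-TCR–transgenic arrays against 3099 and 3494 in C57BL/6 arrays. Both AND-TCR–transgenic arrays were lower, at -0.38 ± 0.19 and an adjusted p of 0.436, and its other probe set, on U74Cv2, was under the limit on all 4 arrays.

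Inducible Hsp70 was not detectable. *Hspa1a* read -8.5 and 118 in AND-TCR–transgenic arrays and 22.3 and 41.2 in C57BL/6 arrays of U74Av2, and *Hspa1b*, nearly identical in sequence and not reliably told apart from it, read 63.6 and 66.8 in AND-TCR–transgenic arrays and -25.8 and 144 in C57BL/6 arrays. All 8 values lay far under the limit of 420.8. The same held for *Hspb1*, the small heat shock protein Hsp27, at 10 and 107 in AND-TCR–transgenic arrays and -156 and 171 in C57BL/6 arrays, and for *Bag3*, a stress-induced partner of Hsp70, at -18.3 and -129 in AND-TCR–transgenic arrays and -5.1 and 44.7 in C57BL/6 arrays. In all 19 genes had every probe set under the limit on every array. They include *Hspa1a*, *Hspa1b*, *Hspb1*, *Bag3*, *Hspb6*, *Hspb8*, *Hspb9*, *Hspa2*, known for its role in spermatogenesis, and *Cct6b* and *Cct8l1*, relatives of CCT subunits. Expression below the reach of these arrays would read the same way. Of 11 probe sets for small heat shock proteins 1 was tested, *Hspb3*, which read 2313 and 729 in AND-TCR–transgenic arrays and 1962 and 2175 in C57BL/6 arrays, with overlapping groups and a log2 fold change of -0.11 ± 0.25.

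**Figure D2:**
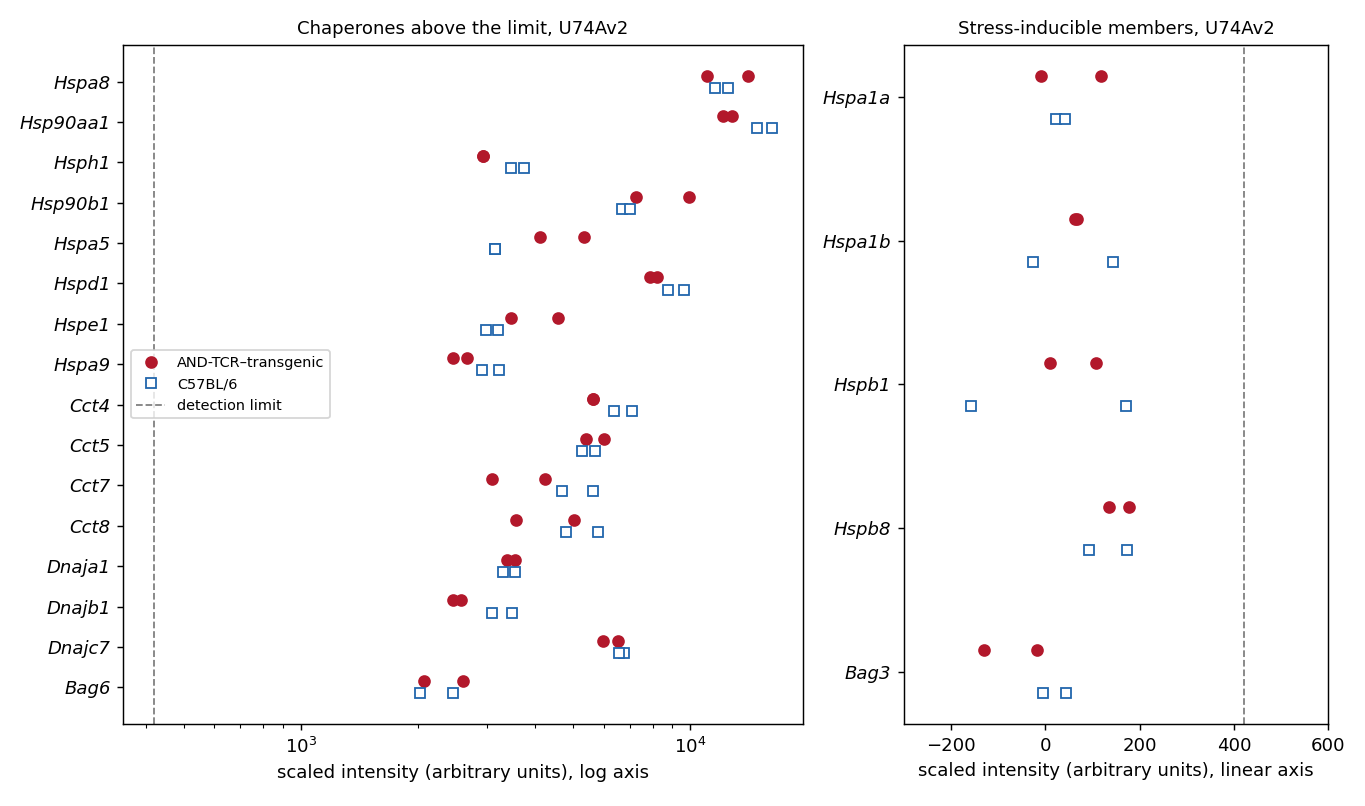
Scaled intensities (arbitrary units) of member probe sets in each U74Av2 array, AND-TCR–transgenic (filled circles) above C57BL/6 (open squares), on a log axis for 16 probe sets above the detection limit and on a linear axis for 5 stress-inducible ones, with the limit of 420.8 as a dashed line. *Hspa5* and *Hspe1* lie to the right of C57BL/6, and *Hsp90aa1*, *Hsph1* and *Dnajb1* to the left. The 5 probe sets on the linear axis, of *Hspa1a*, *Hspa1b*, *Hspb1*, *Hspb8* and *Bag3*, all lie under the limit. They are not all the stress-inducible members, since *Hsp90aa1*, *Hsph1* and *Dnajb1* also respond to stress and lie above it. Only the groups within a row can be compared.

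Among chaperones of the endoplasmic reticulum, *Hspa5* and *Hsp90b1* read higher without overlap. *Dnajc3* had negative log2 fold changes with overlapping groups, and none of the 3 passed the adjusted threshold. *Hspa5* (BiP), the Hsp70 of this compartment, read 5336 and 4104 in AND-TCR–transgenic arrays against 3147 and 3150 in C57BL/6 arrays. Both AND-TCR–transgenic arrays were higher, by 1.49-fold (log2 fold change 0.57 ± 0.19, 95% confidence interval 0.12 to 1.02), with an unadjusted p of 0.0196 and an adjusted p of 0.249 in limma. *Hsp90b1* (GRP94), the Hsp90 of this compartment, read 7254 and 9902 in AND-TCR–transgenic arrays against 6670 and 7004 in C57BL/6 arrays. The groups did not overlap, and the log2 fold change was 0.31 ± 0.18 (adjusted p = 0.510). *Dnajc3* (p58IPK), a J protein of the same compartment that shares the promoter letters above with both, had 4 tested probe sets with log2 fold changes of -0.36, -0.19, -0.24 and -0.79. The last of these, on U74Bv2, read 1399 and 893 in AND-TCR–transgenic arrays and 2711 and 1373 in C57BL/6 arrays, which overlap, with an adjusted p of 0.506. The groups overlapped for all 4 probe sets of *Dnajc3*. The part of the shared element in the readings of these 3 genes was not tested. *Dnajb11* and *Dnajc10*, which act with BiP, had log2 fold changes of 0.06 ± 0.34 and 0.24 ± 0.28.

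Mitochondrial chaperones gave no common direction. *Hspa9*, the mitochondrial Hsp70, read 2675 and 2452 in AND-TCR–transgenic arrays against 2911 and 3236 in C57BL/6 arrays. The AND-TCR–transgenic arrays were the lower ones, at -0.26 ± 0.20 (adjusted p = 0.621). *Hspd1* (Hsp60) read 8221 and 7882 in AND-TCR–transgenic arrays against 8758 and 9608 in C57BL/6 arrays for its bright probe set, and the groups did not overlap, at a log2 fold change of -0.19 ± 0.14 (adjusted p = 0.607). Its dim probe set, whose identifier marks a limited choice of probes, read 590 and 1032 in AND-TCR–transgenic arrays against 474 and 297 in C57BL/6 arrays. This one was higher, at 0.80 ± 0.34 with an adjusted p of 0.352, and only 1 C57BL/6 array was above the limit. *Hspe1* (Hsp10), which shares the region between the starts with *Hspd1*, read 4573 and 3462 in AND-TCR–transgenic arrays against 3212 and 2995 in C57BL/6 arrays. Both AND-TCR–transgenic arrays were higher, at 0.36 ± 0.20 (adjusted p = 0.495), so the bright probe sets of the paired genes had opposite signs.

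The CCT ring had 11 tested probe sets for 7 genes, with a median log2 fold change of 0.02. *Cct7* read 4237 and 3100 in AND-TCR–transgenic arrays against 4684 and 5632 in C57BL/6 arrays. Its groups did not overlap, and the log2 fold change was -0.50 ± 0.21 with an adjusted p of 0.347. *Cct4* read 5640 and 5636 in AND-TCR–transgenic arrays against 6370 and 7070 in C57BL/6 arrays. It was likewise lower on both days, at -0.25 ± 0.14 (adjusted p = 0.509). *Cct8* read 5038 and 3568 in AND-TCR–transgenic arrays and 4785 and 5807 in C57BL/6 arrays, the brighter probe set of *Cct5* 5383 and 6012 in AND-TCR–transgenic arrays and 5270 and 5679 in C57BL/6 arrays, and *Cct2* 169 and 1067 in AND-TCR–transgenic arrays and 615 and 434 in C57BL/6 arrays. In all 3 the groups overlapped, with log2 fold changes of -0.31 ± 0.21, 0.06 ± 0.15 and 0.38 ± 0.46, and *Cct2* was above the limit on 1 AND-TCR–transgenic array. The 3 probe sets of *Cct3* gave 0.23, 0.02 and -0.18, the second probe set of *Cct5* gave -0.04, and the 2 of *Cct6a* gave 0.11 and 0.34. *Tcp1*, the remaining subunit by name, read 924 and 693 in AND-TCR–transgenic arrays against 1139 and 1089 in C57BL/6 arrays, at -0.48 ± 0.33 (adjusted p = 0.589). Its U74Cv2 probe set read 810 and 2520 in AND-TCR–transgenic arrays and -38.6 and 4.6 in C57BL/6 arrays. It was above the limit on 1 array and not tested. A further one on U74Av2 was under the limit on every array.

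The 2 members with an absolute log2 fold change over 1 were J proteins, and neither passed the adjusted threshold in the fit used for all values here. Both passed with log2 of the value plus the limit in place of the floor, at adjusted p of 0.0204 for *Dnajc15* and 0.0407 for *Dnajb4* in limma. Neither passed with the floor at 4 noise SDs, where the lowest adjusted p of any member was 0.118. Over the alternatives the lowest for *Dnajc15* was 0.00489, with a crossed replicate block. For *Dnajb4* it was 6.08e-06, without the filter on dim probe sets, where most probe sets lie at the floor with no spread. They numbered 94 probe sets for 41 genes, of which 39 were tested, 14 with positive and 25 with negative log2 fold changes, and their median was -0.14. In the DNAJC family, whose members share the J domain and otherwise vary widely, 19 of 27 were negative, with a median of -0.19. These 27 probe sets stand for 16 genes, and *Dnajc5* with 5 and *Dnajc3* with 4 weigh most in the count. The DNAJB family had 5 positive and 5 negative values and a median of 0.02.

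*Dnajc15*, a J protein of the mitochondrial inner membrane, read 262 and 134 in AND-TCR–transgenic arrays against 1319 and 1279 in C57BL/6 arrays for its U74Av2 probe set. Both C57BL/6 arrays were above the limit and both AND-TCR–transgenic arrays were under it and raised to it. The fit gave 3.09-fold lower in AND-TCR–transgenic thymocytes (log2 fold change -1.63 ± 0.29, 95% confidence interval -2.31 to -0.94). Its unadjusted p was 7.76e-04 and its adjusted p 0.0577 in limma. With values raised to the limit, this fold is the least that the readings give, without allowing for their spread. The second probe set of *Dnajc15*, on U74Cv2, went the other way. It read 3146 and 5364 in AND-TCR–transgenic arrays against 2089 and 2556 in C57BL/6 arrays, at 0.83 ± 0.42 (adjusted p = 0.446). Both identifiers mark probe sets whose probes also match other sequences, so neither reading can be assigned to *Dnajc15* alone.

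*Dnajb4*, a cytosolic partner of Hsp70, read 1410 and 795 in AND-TCR–transgenic arrays against 3219 and 4531 in C57BL/6 arrays for a U74Bv2 probe set. The groups were far apart, with 1 AND-TCR–transgenic array under the limit, and it was 3.45-fold lower (log2 fold change -1.79 ± 0.36, unadjusted p = 0.00304, adjusted p = 0.110). Its U74Av2 probe set read 309 and 508 in AND-TCR–transgenic arrays against 767 and 657 in C57BL/6 arrays. This was lower too, at -0.62 ± 0.27 (unadjusted p = 0.0540, adjusted p = 0.372), with 1 AND-TCR–transgenic array under the limit. The other probe set read -203 and 80.4 in AND-TCR–transgenic arrays and 592 and 541 in C57BL/6 arrays, all under the limit of U74Bv2, and was not tested.

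*Dnajc5*, the cysteine string protein of secretory vesicles, had 5 tested probe sets. One on U74Bv2 read 2936 and 3046 in AND-TCR–transgenic arrays against 4967 and 4673 in C57BL/6 arrays. It was 1.61-fold lower, at -0.69 ± 0.16 (unadjusted p = 0.00550, adjusted p = 0.146), and the values within each group were close together. At the brightest one, also on U74Bv2, the arrays read 8186 and 7626 in AND-TCR–transgenic thymocytes against 9295 and 9000 in C57BL/6 thymocytes, also without overlap, at -0.21 ± 0.11. A dim probe set read 274 and 418 in AND-TCR–transgenic arrays, both under the limit and raised to it, against 1080 and 1147 in C57BL/6 arrays. It was fitted at 1.28-fold lower (log2 fold change -0.36 ± 0.13, 95% confidence interval -0.69 to -0.02, adjusted p = 0.327 in limma). The remaining ones, on U74Bv2 and U74Av2, overlapped between the groups and gave 0.01 ± 0.20 and -0.26 ± 0.36. The first of these read 7018 and 6140 in AND-TCR–transgenic arrays and 7861 and 5409 in C57BL/6 arrays.

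Other J proteins differed less surely. *Dnajc27*, which joins a J domain to a small GTPase, read 833 and 402 in AND-TCR–transgenic arrays, both under the limit, against 1077 and 1115 in C57BL/6 arrays. With the floor it was fitted at 1.26-fold lower (95% confidence interval of the log2 fold change -0.66 to -0.01, unadjusted p = 0.0447, adjusted p = 0.345 in limma). *Dnajc14*, of the endoplasmic reticulum membrane, read 2284 and 863 in AND-TCR–transgenic arrays and 2404 and 2225 in C57BL/6 arrays, at -0.72 ± 0.50. Its difference came from the second AND-TCR–transgenic array, which was under the limit. *Dnajc30*, a mitochondrial J protein, read 1653 and 2408 in AND-TCR–transgenic arrays against 3154 and 2766 in C57BL/6 arrays, at -0.57 ± 0.28 and without overlap. On U74Cv2 *Dnajb2* read 1754 and 2880 in AND-TCR–transgenic arrays against 1009 and 889 in C57BL/6 arrays, and *Dnajb8*, known from testis, read 2810 and 3729 in AND-TCR–transgenic arrays against 1905 and 2583 in C57BL/6 arrays. Both were higher without overlap. *Dnajb2* was under the limit in both C57BL/6 arrays, which were raised to it. Its fit gave 1.42-fold (95% confidence interval of the log2 fold change -0.12 to 1.14, adjusted p = 0.458 in limma). With the floor at 1 noise SD its log2 fold change was 1.25. For *Dnajb8* the log2 fold change was 0.55 ± 0.37 (adjusted p = 0.582). The bright *Dnajc7* and *Dnajc8* were nearly level. *Dnajc7*, which also binds Hsp90, read 5981 and 6516 in AND-TCR–transgenic arrays and 6775 and 6554 in C57BL/6 arrays (-0.09 ± 0.14), and the 2 probe sets of *Dnajc8*, a protein of the splicing machinery, gave -0.12 ± 0.14 and 0.15 ± 0.25.

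The Bag, *Hspa4*, *Hspa4l* and *Hspbp1* probe sets gave small fitted differences, none past the adjusted threshold. The 10 tested Bag probe sets had log2 fold changes between -0.47 and 0.30 with a median of 0.07, and the lowest, *Bag1*, read 734 and 598 in AND-TCR–transgenic arrays against 1065 and 787 in C57BL/6 arrays. The 4 probe sets of *Bag6*, which guides tail-anchored proteins to their membrane, lay between -0.00 and 0.30. *Hspa4* and *Hspa4l*, relatives of Hsp110, had 4 and 3 tested probe sets with both signs, between -0.28 and 0.42. All 3 tested probe sets of *Hspbp1* were positive, at 0.30, 0.02 and 0.50, with adjusted p of 0.809, 0.984 and 0.539.

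**Figure D3:**
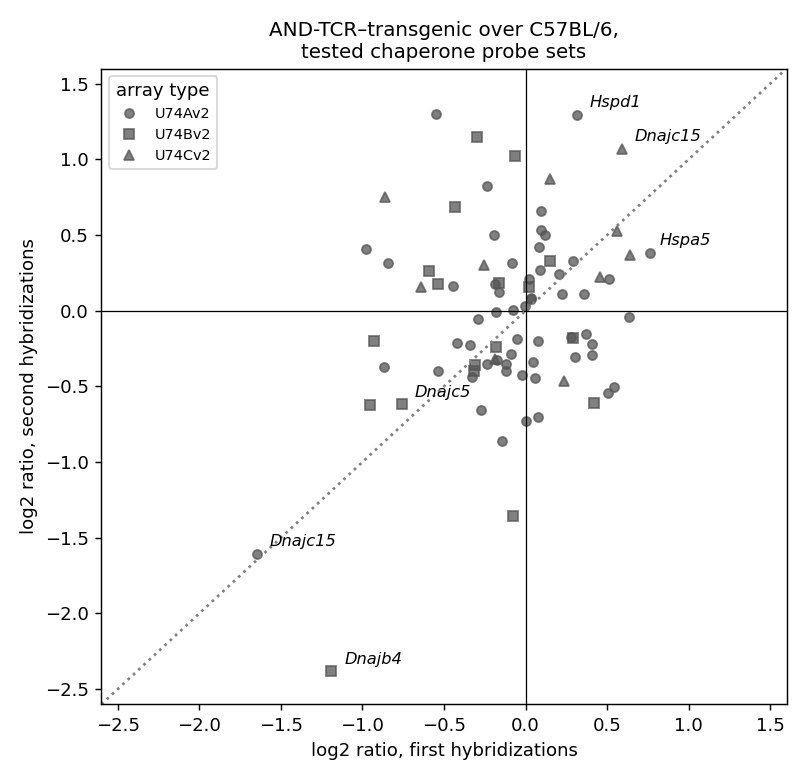
Log2 ratio of the AND-TCR–transgenic array over the C57BL/6 array in the second hybridizations (vertical) and in the first (horizontal), for the 84 tested member probe sets, with the dotted line marking equal ratios and symbols for the array type. Of these, 48 have the same sign in both, and *Dnajc15* (U74Av2) and *Dnajb4* (U74Bv2) stand below the cloud.

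Probe sets of 1 gene often disagreed. Of 19 genes with over 1 tested probe set, 4 (*Cct6a*, *Dnajb4*, *Dnajc3* and *Hspbp1*) had 1 sign throughout and 15 had both. The median range of the log2 fold change within a gene was 0.405, and 2 genes, *Dnajc15* and *Dnajb4*, had a range over 1. For comparison, the median standard error of a single member was 0.274. Between the 2 hybridizations of a group, the members' log2 values differed by a median of 0.312 in AND-TCR–transgenic arrays and 0.193 in C57BL/6 arrays.

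**Figure D4:**
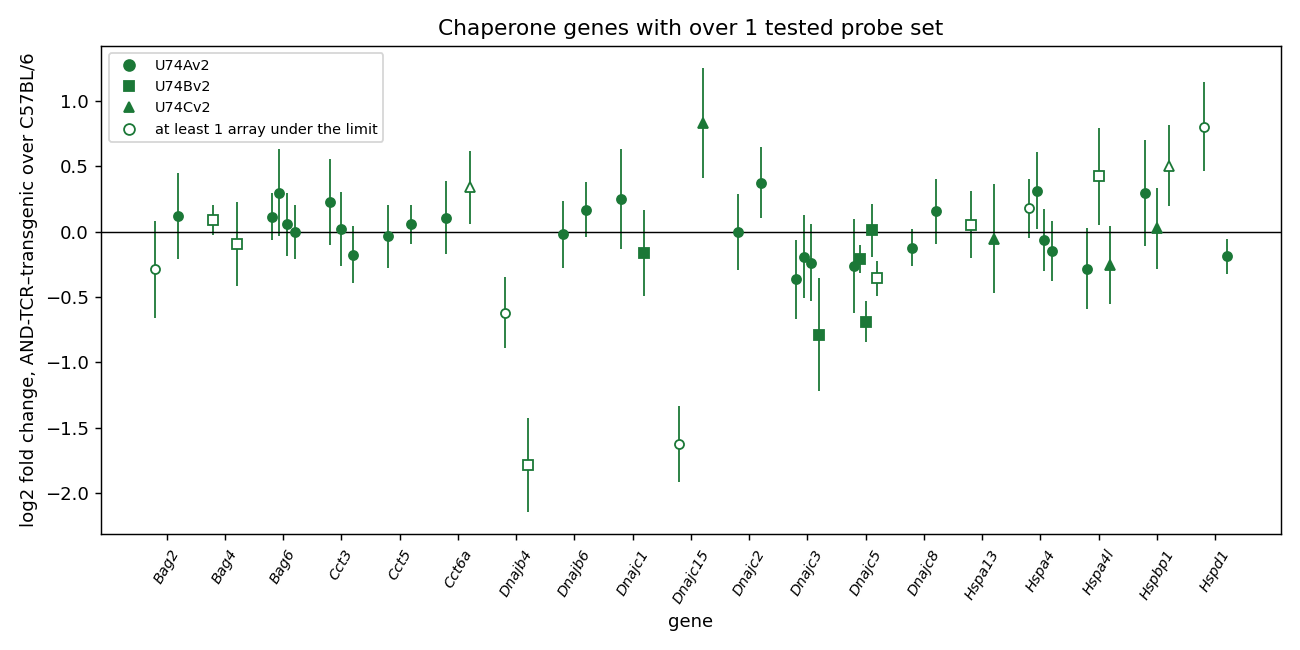
Fitted log2 fold changes, AND-TCR–transgenic over C57BL/6 thymocytes, with bars of 1 standard error, of the 19 member genes with over 1 tested probe set, with symbols for the array type and open symbols where at least 1 of the 4 arrays was under the detection limit. The probe sets of *Dnajc15* lie on both sides of 0, and those of *Dnajb4* and *Dnajc3* lie below it.

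Genes that work with these chaperones were read from a list of 71 named cochaperones, heat shock factors and folding enzymes, of which 57 genes with 82 probe sets were tested. At an adjusted p under 0.05 there were 0 in either direction, 2 were higher and 5 lower at an unadjusted p under 0.05 (7.47% and 6.51% of all tested probe sets were), and the median log2 fold change was -0.03. *Pdia4*, a disulfide isomerase of the endoplasmic reticulum, read 1939 and 3274 in AND-TCR–transgenic arrays against 1219 and 953 in C57BL/6 arrays. It was higher without overlap, at 1.23 ± 0.34 (adjusted p = 0.178). *Xbp1*, a transcription factor of the unfolded protein response, read 1514 and 790 in AND-TCR–transgenic arrays against 2060 and 2066 in C57BL/6 arrays. It was lower, at -0.92 ± 0.37 (adjusted p = 0.333), so that ER folding genes too had both signs. Among the partners of Hsp90, *Fkbp5*, an immunophilin induced by glucocorticoids, read 6009 and 5432 in AND-TCR–transgenic arrays against 8593 and 8742 in C57BL/6 arrays (-0.60 ± 0.14, adjusted p = 0.118). Of the 3 tested probe sets of *Fkbp4*, another immunophilin, 1 gave -0.61 ± 0.23 and the others gave -0.03 and -0.05. The 5 of *Cdc37l1*, a relative of the Hsp90 cochaperone Cdc37, gave -0.44, -0.32, -0.79, -0.22 and 0.33. For the one of -0.79 both AND-TCR–transgenic arrays were under the limit and raised to it. Those of -0.44 and -0.79 had an unadjusted p under 0.05 in limma. *Unc45a*, a chaperone of myosin, gave 0.68 ± 0.28.

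Markers of handling, division and other cells were set beside the members. Of 8 tested immediate early probe sets 0 passed the adjusted threshold. At an unadjusted p under 0.05 in limma, 2 were higher and 1 lower (7.47% and 6.51% of all tested probe sets were). For 4 of them both AND-TCR–transgenic arrays lay above both C57BL/6 arrays (23.0% of all tested probe sets did). *Ier2* read 4437 and 5754 in AND-TCR–transgenic arrays against 2676 and 2314 in C57BL/6 arrays (1.02 ± 0.20, adjusted p = 0.0759), and *Egr1* was higher too (0.90 ± 0.26, adjusted p = 0.192), while *Btg2* was lower (-0.52 ± 0.15, adjusted p = 0.186). The U74Av2 sums of the list, to which *Jund* and *Btg2* gave the most, were 56881 and 71745 in AND-TCR–transgenic arrays and 64681 and 63659 in C57BL/6 arrays. Of 25 tested probe sets for S phase and mitosis 0 passed, 16 had both AND-TCR–transgenic arrays below both C57BL/6 arrays (21.4% of all tested probe sets did), and the median log2 fold change was -0.36, with sums of 68234 and 70034 in AND-TCR–transgenic arrays against 87631 and 88639 in C57BL/6 arrays. The B cell list summed to 26529 and 26453 in AND-TCR–transgenic arrays against 34171 and 38731 in C57BL/6 arrays, with 0 of 9 past the adjusted threshold. An *Ighm* probe set gave the most to these sums, 16012 and 16775 in AND-TCR–transgenic arrays against 19965 and 22305 in C57BL/6 arrays. The macrophage and dendritic cell list (0 of 6) and the stroma list (0 of 3) had medians of 0.18 and 0.27. Of the red blood cell list 1 probe set was tested, which did not pass at a log2 fold change of -0.96. Of the pan T cell list 1 of 7 tested probe sets was higher and 0 were lower, with sums of 85873 and 90270 in AND-TCR–transgenic arrays and 81687 and 88566 in C57BL/6 arrays. The part of these lists in the chaperone values was not tested.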

How the data were processed

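Total RNA from thymocytes had been labeled with biotin by the authors, hybridized to Affymetrix U74Av2, U74Bv2 and U74Cv2 arrays and analyzed with Microarray Suite. The deposited intensities are linear and include negative values. Neither the type of value nor its scaling target is stated in the sources used here. Instrument settings (deposited as text of other kinds, with day and fluidics module) served to check batches.

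Each array was multiplied by 1 factor to the common mean of its array type, taken without the lowest and highest 2% of values. The noise SD was taken from the negative values (1.4826 times their median size), 2 noise SDs gave the detection limit, and lower values were raised to this limit before log2. Probe sets with both arrays of at least 1 group above the limit were tested, two-sided, with limma 3.58.1 in R 4.3.3 (lmFit, eBayes with a trend), 1 fit per array type, with Benjamini-Hochberg adjustment over the 12844 tested probe sets, and log2 fold changes are AND-TCR–transgenic minus C57BL/6. The number of arrays limits the precision. The code was tested on simulated data. Confidence intervals are from the same fit. Array types were normalized separately. Figures were drawn with matplotlib 3.10.9.

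Arrays with the same hybridization number shared a day in the file headers, which makes the number a pairing. The correlation of the second minus the first hybridization between the groups was 0.0354 on U74Av2, -0.119 on U74Bv2 and -0.232 on U74Cv2.

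Symbols came from the platform annotation, and 3 probe sets with several symbols, of *Dnajc19* and its pseudogene, were left out. The members and gene lists were chosen with earlier results of these data known. Named with all values are members with an unadjusted p under 0.05, the 12 with the largest absolute log2 fold changes, the 10 highest within their array type, and the stress-inducible, constitutive, endoplasmic reticulum, mitochondrial and CCT members, and other members named were chosen after their values were seen. Alternatives changed the floor, the filter, the scaling, the prior variance, the block and the arrays included.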

Additional observations from a re-analysis of the deposited data

How the results depend on the processing

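Over all tested probe sets, the counts of 62 higher and 73 lower in AND-TCR–transgenic thymocytes depended on the processing. They were 130 and 140 with the floor at 1 noise SD, 0 and 0 with the floor at 4 noise SDs, 159 and 168 with log2 of the value plus the limit, 414 and 402 without the filter on dim probe sets, 129 and 127 among those above the limit on all 4 arrays, 1 and 9 without a trend in the prior variance, and 155 and 151 with the replicate block. Without any 1 of the 4 replicates they were 0 and 0 (lowest and highest 0), where 1290 to 1968 passed at an unadjusted p under 0.05, as did 1357 with the floor at 4 noise SDs. A crossed replicate block, added after seeing the data, gave 229 and 226.

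Of the members, where 0 were higher and 0 lower, 1 was lower with the floor at 1 noise SD, 2 with log2 of the value plus the limit, 1 with the replicate block and 2 with the crossed replicate block. Without the filter 3 were higher and 3 lower, but most probe sets then lie at the floor with no spread. The lowest adjusted p of *Dnajb4* given next is from this setting. The adjusted p of *Dnajc15* (U74Av2) lay between 0.00489 and 0.581 over the alternatives, and that of *Dnajb4* (U74Bv2) between 6.08e-06 and 0.479, both negative throughout. The members' median of -0.02 was -0.070 within the first hybridizations and -0.094 with the highest probe set of each gene. The replicate block changed no other member's call.

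Signs turned in 10 named probe sets, none of them past the threshold. *Cct2* turned to -0.12 with the floor at 1 noise SD, to -0.0056 with log2 of the value plus the limit and to -0.55 in the first hybridizations. In the first hybridizations *Cct8* turned to 0.074 and the *Dnajc5* probe set of 0.01 to -0.16, and in the second *Cct3* (0.02) turned to -0.50, *Cct5* (-0.04) to 0.0048, *Cct6a* (0.11) to -0.15 and *Hspa8* to -0.17. Leaving out each replicate in turn gave -0.30 to 1.05 for *Cct2*, -0.012 to 0.46, -0.37 to 0.41 and -0.43 to 0.078 for the 3 probe sets of *Cct3*, -0.14 to 0.071 and -0.023 to 0.14 for those of *Cct5*, -0.14 to 0.36 for *Cct6a*, -0.26 to 0.28 for *Dnajc5* and -0.12 to 0.23 for *Hspa8*. The cause of these changes was not tested.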
